A study of Mus musculus with 15 samples.

Results

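The mitochondrial genome of the mouse carries its own genes, whose symbols start with mt-, and these genes were followed through bulk RNA sequencing of kidney podocyte fractions. Members were chosen by that prefix and by no measured value, which gave 37 of the 46078 genes in the deposited count table: 13 mRNA genes, 2 rRNA genes and 22 tRNA genes. The fractions came from male C57BL/6J mice in 3 groups. Young mice were 4 months old and uninjected, while aged mice were 21 months old and received weekly intraperitoneal injections for 8 weeks at 12 mg/kg, either of the isotype control antibody IgG2a (clone 2A3) or of an antibody against the checkpoint receptor PD-1 (clone RMP1-14, here aPD1ab). Sample titles of the aPD1ab group give the treatment in days, over a shorter time than the weeks of the protocol. Since young mice had no injection, age and injection cannot be told apart when they are compared with aged mice, and the antibodies acted on the whole animal. Cortex was digested, and cells binding antibodies to nephrin (the slit diaphragm protein of podocytes) were kept on magnetic columns. The labels list 5 samples a group, and 13 of 15 columns could be tied to a group: 5 young, 4 aged IgG2a and 4 aged aPD1ab libraries. Counts per library lay between 19912969 and 32717100.

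The 13 mitochondrial mRNAs encode core subunits of the respiratory chain, the series of inner membrane complexes that passes electrons to oxygen and drives ATP synthesis. All other subunits, and every protein that copies or reads mitochondrial DNA, are encoded in the nucleus and imported. Both strands of the mitochondrial genome are transcribed into long RNAs that are cut at the tRNAs lying between the mRNAs and rRNAs, so single mitochondrial RNAs differ in level mainly through processing and stability. Kidney tubule cells, above all those of the proximal tubule, are rich in mitochondria, whereas podocytes hold fewer.

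The libraries were not pure podocytes. All 6 podocyte markers used (Nphs1, Wt1, Synpo, Podxl, Ptpro, Cdkn1c) were detected, with a summed level of 669.2 to 1114 CPM (read counts scaled to library size, with TMM factors) in young, 285 to 337 in aged IgG2a and 182 to 607 in aged aPD1ab libraries. Proximal tubule markers (10 genes) summed to 11588 to 17700 CPM in young libraries and to 8532, 24101, 9272 and 8490 CPM in aged aPD1ab libraries. In aged IgG2a mice they stood at 8337 CPM in replicate 1 and at 1507 to 2388 CPM in replicates 2 to 4. Macrophage markers (6 genes) summed to 1534 to 2867 CPM in young and 1901 to 4249 CPM in aged aPD1ab libraries, to 2469 CPM in aged IgG2a replicate 1 and to 6073 to 7373 CPM in its replicates 2 to 4. No marker in these lists was at 0 over all libraries. Aged IgG2a replicate 1 thus stood apart from its group in the proximal tubule and macrophage sums, and the fits that use that group were repeated without it. The choice of this library followed from its values. Aged aPD1ab replicate 2 also stood apart from its group in proximal tubule markers. Call counts with each single library left out are given as ranges in the last section. In bulk libraries fewer cells of a type and less RNA per cell cannot be told apart.

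Several mitochondrial mRNAs share their sequence with the nucleus, which bears on the values of those mRNAs. A search of GENCODE M21 transcripts (GRCm38) for stretches matching a mitochondrial gene over at least 100 bases found 16 nuclear genes, which matched 11 of the 13 mRNAs, all but mt-Nd1 and mt-Atp8. A run of 7 annotated pseudogenes on the minus strand of chromosome 1 (chr1:24611535-24616197, 4663 bases) follows the order of the mitochondrial genome from chrM:6381 to chrM:11042. Gm28661 matched mt-Co2 over 681 bases, Gm10925 matched mt-Atp6 over 678, Gm28437 matched mt-Co3 over 783, Gm10222 matched mt-Nd4l over 294 and Gm28439 matched the first 876 bases of mt-Nd4, each with 0 differences. Gm28438 differed from mt-Nd3 at 1 of 345 bases and Gm29216 from the last part of mt-Co1 at 6 of 492. The genes mt-Co2, mt-Atp8, mt-Atp6, mt-Co3, mt-Nd3 and mt-Nd4l lie wholly inside this run; mt-Atp8 has no annotated copy, but its place in the run is chr1:24614609-24614812. The first 60 bases of mt-Atp6 (chrM:7927-7986, plus strand) and of Gm10925 (chr1:24614592-24614651, minus strand) are shown to let the identity be seen, with the start codon in capitals.
mt-Atp6: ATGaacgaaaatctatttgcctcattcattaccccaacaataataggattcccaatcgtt
Gm10925: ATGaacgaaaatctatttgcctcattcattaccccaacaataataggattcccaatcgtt

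The few differences lay at the very start of 2 copies, so that a read from elsewhere in these copies carries no base that tells the genomes apart. All 6 differences of Gm29216 fall within the first 13 bases of the copy: T1056A, C1057T, A1059G, A1060G, C1062A and A1066T, with the mitochondrial base first and positions counted from 1 at the first base of mt-Co1. In Gm28438 the difference is T3C, counted from the first base of mt-Nd3. The first 60 bases of each copy are given below the matching mitochondrial stretch (chrM:6381-6440 and chr1:24616138-24616197; chrM:9459-9518 and chr1:24613060-24613119), with differences in capitals.
mt-Co1: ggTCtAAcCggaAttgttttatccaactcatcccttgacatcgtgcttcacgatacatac
Gm29216: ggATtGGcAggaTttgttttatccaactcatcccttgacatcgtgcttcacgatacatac
mt-Nd3: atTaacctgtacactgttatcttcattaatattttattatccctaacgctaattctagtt
Gm28438: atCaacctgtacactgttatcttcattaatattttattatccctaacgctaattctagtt

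Overlapping genes form a further limit, since how reads on shared bases were assigned is not given in the sources used here. The mt-Atp8 mRNA (chrM:7766-7969, plus strand), which encodes a small membrane subunit of ATP synthase, shares its last 43 of 204 bases with mt-Atp6, printed in capitals.
mt-Atp8: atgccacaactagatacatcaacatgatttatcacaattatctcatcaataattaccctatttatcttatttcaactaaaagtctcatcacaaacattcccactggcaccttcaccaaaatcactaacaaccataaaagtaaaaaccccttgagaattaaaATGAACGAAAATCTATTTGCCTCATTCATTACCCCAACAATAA
Among the other mRNAs, mt-Nd4l and mt-Nd4 overlap by 7 bases, and mt-Nd5 and mt-Nd6, on opposite strands, overlap by 14. Whether the counting used strand is not stated, so reads of overlapping genes on opposite strands cannot be told apart.

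Levels per length fell into separate ranges inside and outside the run of copies. Mean CPM per kilobase over the 13 libraries was 76216 for mt-Co1 (catalytic subunit of cytochrome c oxidase, complex IV), 66635 for mt-Cytb (cytochrome b of complex III), 44012 for mt-Nd1, 30122 for mt-Nd2, 20738 for mt-Nd4, 13072 for mt-Nd5 and 12136 for mt-Nd6 (membrane subunits of complex I). Of these, mt-Co1 and mt-Nd4 reach beyond the run and the other 5 lie outside it. Below them came the rRNAs mt-Rnr1 at 2367 and mt-Rnr2 at 1998 CPM per kilobase. The paper names the method mRNA-Seq, so the rRNA counts need not show the amount of rRNA in the cells. The 6 mRNAs inside the run followed: mt-Co2 at 1598, mt-Co3 at 1414, mt-Atp6 at 1183, mt-Nd4l at 294, mt-Nd3 at 127 and mt-Atp8 at 40.6 CPM per kilobase. Neighbours in this order held their order in at least 12 of 13 libraries, except mt-Nd5 over mt-Nd6 (8 libraries) and mt-Rnr2 over mt-Co2, mt-Co2 over mt-Co3 and mt-Co3 over mt-Atp6 (10 libraries each). The pair of mt-Co2 and Gm28661 summed to 882 to 1537 CPM in young, 2057 to 7840 CPM in aged IgG2a and 1187 to 4982 CPM in aged aPD1ab libraries. For mt-Co1 and Gm29216 the sum was 69718 to 104227 CPM in young libraries. In young libraries 26.9% to 40.9% of the pair of mt-Co2 and Gm28661 was counted on mt-Co2. In contrast, 99.0% to 99.2% of the pair of mt-Co1 and Gm29216 was counted on mt-Co1 in young libraries. How reads matching more than 1 place were treated is not given in the sources used here, and values of the 6 genes are uncertain for that reason.

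**Figure D1:**
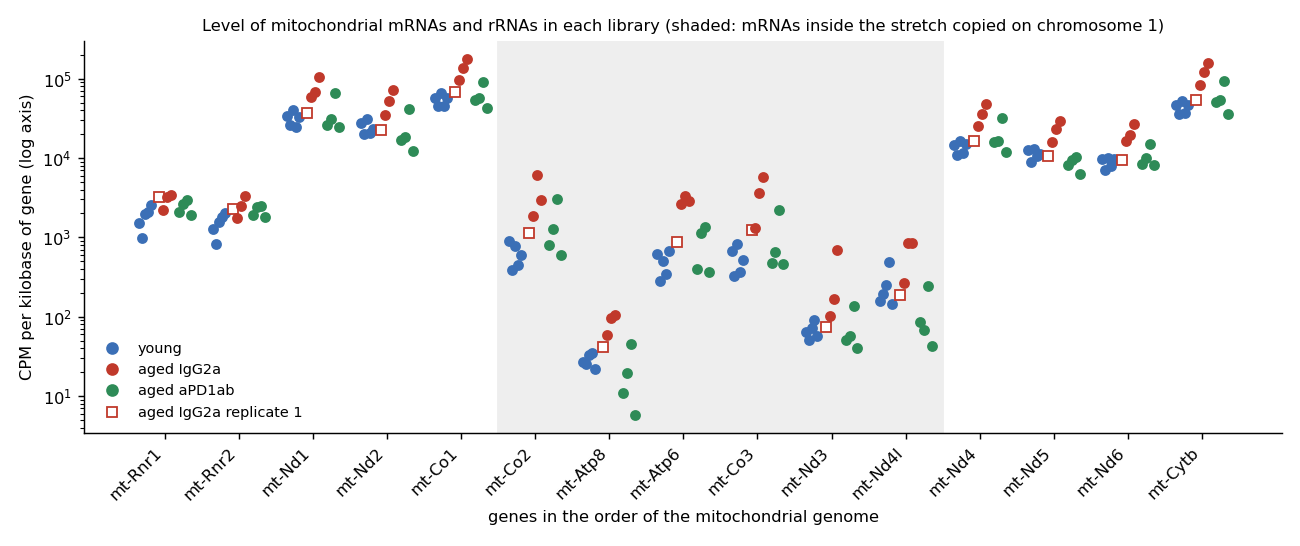
CPM per kilobase (log axis) of the 13 mRNAs and 2 rRNAs in genome order, 1 point per library, with young, aged IgG2a and aged aPD1ab libraries side by side and the 6 mRNAs inside the copied run shaded. The shaded mRNAs lie below the unshaded mRNAs, from a mean of 40.6 for mt-Atp8 to 1598 for mt-Co2 against 12136 or more.

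Mitochondrial mRNAs took a larger part of the counts in 3 of the 4 aged IgG2a libraries than in any young library. The 13 mRNAs made up 27.6%, 22.8%, 29.9%, 22.8% and 26.5% of all gene counts in young mice. In aged IgG2a mice they made up 28.6%, 38.2%, 45.7% and 54.2%. In aged aPD1ab mice they made up 24.8%, 24.6%, 37.8% and 19.9%. Replicate 1 of the aged IgG2a group lay within the young range and its other replicates above it, while in the aPD1ab group replicate 3 stood higher than the rest. Means were 25.9% ± 3.09 (SD, n = 5) in young, 41.7% ± 10.9 (SD, n = 4) in aged IgG2a and 26.8% ± 7.71 (SD, n = 4) in aged aPD1ab mice, and the ranges overlapped in every pair of groups. Without replicate 1 the aged IgG2a mean was 46.0% ± 8.0 (SD, n = 3). This sum over all members is given without a test.

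Markers of some other cell types varied with this share across libraries. Over the 13 libraries the share and the summed macrophage markers had a Pearson r of 0.81 and a Spearman rho of 0.56, and the share and the proximal tubule markers an r of -0.65 and a rho of -0.54. Erythroid markers (3 genes) had an r of 0.56 and a rho of 0.67, the highest rank correlation of the lists. The Spearman rank correlation was -0.45 for podocyte, -0.43 for mesangial and smooth muscle, -0.39 for endothelial, -0.25 for collecting duct, -0.15 for thick ascending limb and distal tubule and 0.11 for lymphocyte markers. The libraries share their group and their scaling, so these values are descriptions. Podocyte markers stood lower in both aged groups than in young mice, at 318 ± 23.2 CPM (SD, n = 4) with IgG2a and 413 ± 185 CPM (SD, n = 4) with aPD1ab against 910.5 ± 194 CPM (SD, n = 5). The part of these markers in the results was not tested.

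**Figure D2:**
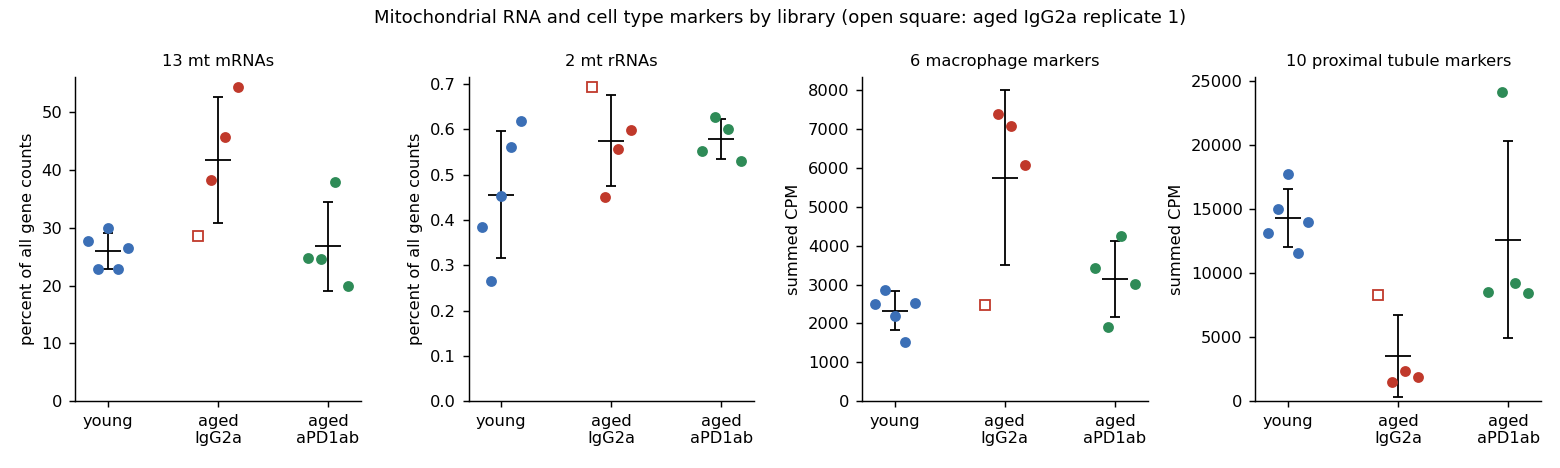
Percent of all gene counts on the 13 mRNAs and on the 2 rRNAs, and summed CPM of 6 macrophage and 10 proximal tubule markers; points are libraries, and bars show the mean ± SD of each group. Aged IgG2a replicates 2 to 4 hold 38.2% to 54.2% mRNA counts and 6073 to 7373 CPM of macrophage markers, while replicate 1 (open square) lies near the young libraries in both.

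The first comparison asks how aged mice given the control antibody differ from young mice. All 13 mRNAs had a higher level in aged IgG2a mice, and 10 of them rose at an edgeR adjusted p under 0.05, against 9.05% of 15953 genes tested that were called higher. None of the 13 was called lower, (8.38% of all genes were), and 13 of 13 had an unadjusted p under 0.05, as did 36.2% of all genes. The median log2 fold change of the 13 was 1.26, beside 0.038 over all genes tested. Groups did not overlap for 7 of the 13, against 4.75% of all genes that lay higher without overlap. Without aged IgG2a replicate 1, 13 of 13 rose, against a background of 22.1%, with a median of 1.46, and 12 of 13 lay higher without overlap, against 19.4%. Leaving out any other single library cut the count to 4, where 1.6% to 4.72% of all genes were called higher. Those 4 were mt-Co2, mt-Atp8, mt-Atp6 and mt-Co3, which were called in each of the 9 fits that left out 1 library, and all 4 lie inside the run copied on chromosome 1.

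Complex IV has 3 subunits of mitochondrial origin, and all 3 rose. The catalytic subunit mt-Co1 (chrM:5328-6872) stood at 87226, 69141, 103331, 69657 and 87746 CPM in young mice and at 103929, 149724, 208460 and 272357 CPM in aged IgG2a mice. The lowest aged library lay just above the highest young one. Its log2 fold change was 1.21 (SE 0.36, edgeR adjusted p = 0.0470), and 1.39 without replicate 1. The copper-binding subunit mt-Co2 (chrM:7013-7696) was at 608, 262, 525, 309 and 413 CPM in young and at 772, 1263, 4139 and 1999 CPM in aged IgG2a mice. Again the groups did not overlap, and the aged libraries spread over more than 5-fold. Its log2 fold change of 2.34 (SE 0.47, edgeR adjusted p = 0.0162) went to 2.60 without replicate 1 and to 1.74 without replicate 3, its highest library. For mt-Co3 (chrM:8607-9390), a core subunit without metal centres, young libraries held 523, 256, 637, 283 and 409 CPM and aged IgG2a libraries 977, 1014, 2807 and 4525 CPM. This was the highest fold change of the 13, 2.54 on the log2 scale (SE 0.50, edgeR adjusted p = 0.0156), and 2.77 without replicate 1.

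Complex V, the ATP synthase, has mt-Atp6, part of the proton channel, and mt-Atp8, and both rose. Young libraries held 418, 194, 341, 236 and 454 CPM of mt-Atp6, and aged IgG2a libraries 598, 1786, 2262 and 1978 CPM. Replicates 2 to 4 lay well above replicate 1, which itself was above the young libraries. The log2 fold change was 2.41 (SE 0.40, edgeR adjusted p = 0.00918), and 2.67 without replicate 1. The level of mt-Atp8 was the lowest of the mRNAs, at 5.51, 5.10, 6.74, 7.08 and 4.51 CPM in young and 8.47, 12.1, 19.7 and 21.7 CPM in aged IgG2a mice. Its groups did not overlap either, and its log2 fold change was 1.48 (SE 0.28, edgeR adjusted p = 0.0135), with 1.67 without replicate 1.

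Complex III has 1 such subunit, mt-Cytb (chrM:14145-15288), which carries the haem groups that oxidise ubiquinol and lies outside the chromosome 1 run. It was at 53873, 41616, 60466, 41744 and 54051 CPM in young mice and at 62048, 95667, 137186 and 178112 CPM in aged IgG2a mice. Every aged library lay above every young one, replicate 1 by little. The log2 fold change was 1.30 (SE 0.37, edgeR adjusted p = 0.0378), and the edgeR adjusted p was 0.00104 without replicate 1.

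Complex I, which takes electrons from NADH, has 7 mitochondrial subunits, of which 4 rose. On the log2 scale mt-Nd1 rose by 1.16 (edgeR adjusted p = 0.0472), mt-Nd3 by 2.01 (edgeR adjusted p = 0.0437), mt-Nd4 by 1.26 (edgeR adjusted p = 0.0357) and mt-Nd6 by 1.08 (edgeR adjusted p = 0.0381). The value of mt-Nd3 leant on 1 library: aged IgG2a mice held 25.5, 35.1, 57.5 and 239 CPM, and young mice 22.6, 17.5, 25.3, 31.4 and 19.7 CPM. Without aged IgG2a replicate 4 the value of mt-Nd3 was 0.81 and was not called. Not called were mt-Nd2 at 0.95 (edgeR adjusted p = 0.0934), mt-Nd4l at 1.19 (edgeR adjusted p = 0.129) and mt-Nd5 at 0.87 (edgeR adjusted p = 0.0932). For mt-Nd5 (chrM:11742-13565), a proton-pumping subunit, young libraries held 22804, 16410, 24034, 19368 and 20719 CPM and aged IgG2a libraries 19484, 28771, 41937 and 54031 CPM. Replicate 1 fell within the young range and the other replicates above it. Without replicate 1, mt-Nd2 (1.16), mt-Nd4l (1.46) and mt-Nd5 (1.06) passed the test too.

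Counts assigned to the nuclear copies rose as well. Over most of their length, reads of the chromosome 1 copies carry no base that tells them from mitochondrial reads. The values below therefore need not stem from the copies themselves. Of the 7 on chromosome 1, 6 were called higher in aged IgG2a than in young mice, against 9.05% of all genes, with a median log2 fold change of 1.66. Without replicate 1 there were again 6, against 22.1%, with a median of 1.90. These were Gm28661 (1.83), Gm29216 (1.83), Gm28437 (1.69), Gm10925 (1.66), Gm28438 (1.29) and Gm28439 (1.26), while Gm10222 stood at 0.98 (edgeR adjusted p = 0.262). Outside the run, 3 pseudogenes on chromosome 2 matched mt-Co1 (Gm13340), mt-Co2 (Gm13341) and mt-Nd2 (Gm13339). Of these Gm13340 (1.70) and Gm13341 (1.41) were called higher, and Gm13339 (0.85, edgeR adjusted p = 0.298) was not; without replicate 1 they stood at 1.88, 1.58 and 1.16, with the same genes called. The copies on chromosome 1 held 0.298% to 0.453% of all counts in young and 0.516% to 1.12% in aged IgG2a mice.

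**Figure D3:**
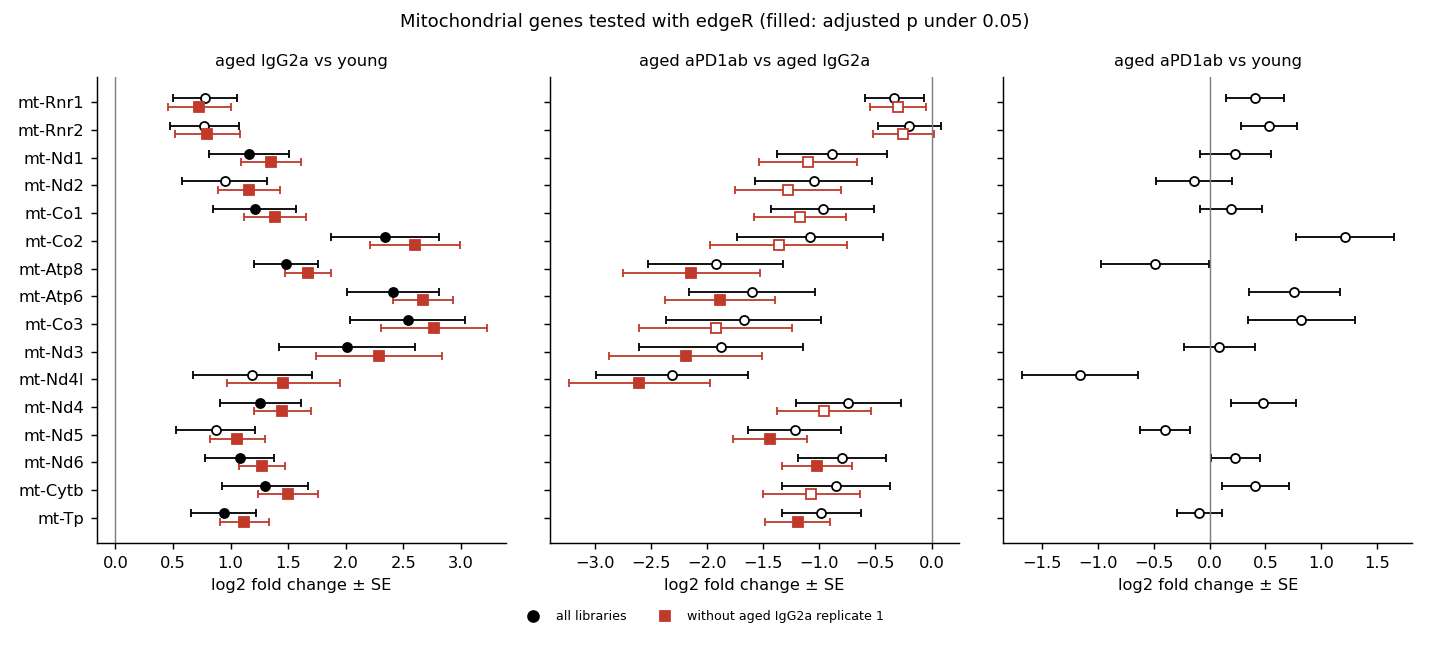
Log2 fold change ± SE from edgeR for the 13 mRNAs, the 2 rRNAs and mt-Tp in 3 comparisons, in genome order, over all libraries (black circles) and, in the first and second panel, without aged IgG2a replicate 1 (red squares); filled marks have an adjusted p under 0.05. All marks lie above 0 for aged IgG2a against young, where 10 of 13 mRNAs are filled over all libraries and 13 of 13 without replicate 1, and below 0 for aged aPD1ab against aged IgG2a.

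The rRNAs, which form the cores of the mitochondrial ribosome subunits, did not pass the edgeR test over all libraries. mt-Rnr1 (small subunit) was at 1457, 945, 1878, 1978 and 2473 CPM in young and 3080, 2083, 3077 and 3226 CPM in aged IgG2a mice, with a log2 fold change of 0.78 (SE 0.28, edgeR adjusted p = 0.0786). mt-Rnr2 (large subunit) was at 2041, 1297, 2477, 2865 and 3235 CPM in young and 3566, 2801, 3936 and 5242 CPM in aged IgG2a mice, with a log2 fold change of 0.77 (SE 0.30, edgeR adjusted p = 0.0931). For both, aged IgG2a replicate 2 lay within the young range. Without replicate 1 both passed narrowly, at 0.73 (edgeR adjusted p = 0.0488) and 0.80 (edgeR adjusted p = 0.0410). Over all libraries both were called with DESeq2 (0.77 and 0.76) and with limma voom with quality weights (0.91 and 0.92). The shares of all genes called in those fits are not given here. Per 100 mRNA counts there were 1.16 to 2.46 rRNA counts in young mice, 2.42 in aged IgG2a replicate 1, 1.10 to 1.22 in its replicates 2 to 4, and 1.59 to 2.67 in aged aPD1ab mice. Replicates 2 to 4 of the aged IgG2a group thus lay next to the lowest young library. How far library preparation set the rRNA counts was not tested.

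The tRNAs were almost absent from the table. Of the 22 genes, 19 had 0 counts in every library, which allows up to 0.0917 to 0.151 CPM per library. These genes are 59 to 75 bases long. mt-Ts1 (a serine tRNA) had 5 counts in 4 libraries and mt-Td (the aspartate tRNA) had 1 count. The exception was mt-Tp, the proline tRNA, with 4304 to 8875 counts per library. It is the last gene of the annotation and is encoded on the minus strand (chrM:15356-15422), next to the noncoding control region, and its sequence is shown because it alone among the tRNAs passed the low count filter.
mt-Tp: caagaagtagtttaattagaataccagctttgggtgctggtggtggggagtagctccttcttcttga
Levels of mt-Tp were 217, 167, 279, 206 and 221 CPM in young, 218, 311, 446 and 613 CPM in aged IgG2a, and 172, 192, 296 and 154 CPM in aged aPD1ab mice. Its order over the aged IgG2a libraries was that of the mRNA share. Against young mice the counts on mt-Tp rose in aged IgG2a mice with a log2 fold change of 0.94 (SE 0.28, edgeR adjusted p = 0.0483), and of 1.12 without replicate 1. Whether these counts come from the tRNA or from longer RNA of either strand over its place was not tested. In all, 16 of 37 members passed the filter and 21 did not, and counts over the 16 say nothing of the 21.

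The second comparison asks what the PD-1 antibody changed among aged mice. All 13 mRNAs had a lower level with aPD1ab than with IgG2a, and 0 were called by edgeR, as were 0% of 15530 genes tested in either direction. At an unadjusted p under 0.05 there were 6 of the 13 mRNAs and 4340 of all genes (27.9%). DESeq2 called 7 of the 13 lower (6.59% of all genes), limma voom with quality weights 13 (18.9%), and 1 edgeR fit of all 3 groups 4 (6.14%). The median log2 fold change was -1.08, beside -0.011 over all genes, and values ran from -0.74 for mt-Nd4 to -2.31 for mt-Nd4l. Groups were without overlap for mt-Nd5 alone, against 4.73% of all genes lower without overlap. Without aged IgG2a replicate 1, 6 of 13 fell at an edgeR adjusted p under 0.05, against a background of 13.2%, the median was -1.36, and 6 lay lower without overlap, against 18.5%.

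The 6 mRNAs that fell without replicate 1 came from complexes I and V. Of these, mt-Nd4l, mt-Atp8, mt-Atp6 and mt-Nd3 lie inside the copied run, where values are uncertain. In that fit 4 of the 6 mRNAs inside the run and 2 of the 5 outside it were called lower, against 13.2% of all genes. The aPD1ab libraries held 14971, 17103, 18900 and 11423 CPM of mt-Nd5, all below the lowest aged IgG2a library at 19484. Over all libraries its log2 fold change was -1.22 (SE 0.41, edgeR adjusted p = 0.121), and without replicate 1 it was -1.44 (SE 0.33, edgeR adjusted p = 0.0161). For mt-Nd4l, a small membrane subunit of complex I, aPD1ab libraries held 25.5, 20.4, 73.0 and 12.6 CPM and aged IgG2a libraries 56.2, 78.0, 253 and 252 CPM. Only aPD1ab replicate 3 reached into the IgG2a range. Its log2 fold change was -2.31 (SE 0.68, edgeR adjusted p = 0.109), and -2.60 (SE 0.63, edgeR adjusted p = 0.0199) without replicate 1. For mt-Atp8 the aPD1ab libraries held 2.24, 4.03, 9.30 and 1.18 CPM, with an estimate of -1.92 (edgeR adjusted p = 0.115), and -2.14 (edgeR adjusted p = 0.0326) without replicate 1. mt-Atp6 (-1.88, edgeR adjusted p = 0.0238), mt-Nd3 (-2.19, edgeR adjusted p = 0.0433) and mt-Nd6 (-1.02, edgeR adjusted p = 0.0399) also fell without replicate 1, as did mt-Tp (-1.19, edgeR adjusted p = 0.0186). The estimate of mt-Nd3 rested on aged IgG2a replicate 4, at 239 CPM: it was -1.87 over all libraries and -0.68 without that library. The mRNAs that make up most of the counts, mt-Co1 (-1.17, edgeR adjusted p = 0.0609) and mt-Cytb (-1.07, edgeR adjusted p = 0.0914), did not pass in that fit. Both rRNAs were nearer to 0, at -0.33 (mt-Rnr1) and -0.20 (mt-Rnr2) over all libraries.

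A single library set the upper end of the aPD1ab group. Replicate 3 held 140478 CPM of mt-Co1, against 83301, 89495 and 65950 in the others, and 105882 CPM of mt-Cytb, against 58265, 61615 and 40470. For mt-Nd5, with 18900 CPM, it lay close to the 17103 of replicate 2. Without it the mRNA share of the group was 23.1% ± 2.79 (SD, n = 3).

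The third comparison sets aged aPD1ab mice beside young mice; it uses the same aPD1ab libraries as the second and the same young libraries as the first. Of the 13 mRNAs 9 had a positive and 4 a negative log2 fold change, and 0 were called by edgeR, against 22.4% of 15986 genes called in either direction, 12.4% higher and 9.97% lower. At an unadjusted p under 0.05 there were 2, mt-Co2 (1.21, edgeR adjusted p = 0.0749) and mt-Nd4l (-1.16, edgeR adjusted p = 0.133), beside 36.9% of all genes. None of the 13 was without overlap, against 11.3% of all genes lying higher and 10.6% lying lower. DESeq2 called 1 higher, against 15.3% of all genes, and limma voom with quality weights 2 lower, against 11.5%. The median was 0.23, beside 0.017 over all genes. For the abundant mRNAs the estimates were 0.19 (SE 0.28) for mt-Co1, 0.41 (SE 0.30) for mt-Cytb, 0.23 (SE 0.32) for mt-Nd1 and -0.40 (SE 0.22) for mt-Nd5. Spread among the aPD1ab libraries limits these, and a missed threshold does not show that the levels were equal. Without aPD1ab replicate 3, mt-Atp8 (-1.23) and mt-Nd4l (-1.90) were called lower, against 7.96% of all genes. Without replicate 4, mt-Co2 (1.47) was called higher, against 8.29%. Those 3 genes are among the 6 inside the copied run.

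The make-up of the mitochondrial mRNA pool differed between groups for some of its abundant members. Each mRNA was expressed as a percent of the counts on all 13 mRNAs, which does not depend on the scaling between libraries. The shares are parts of a whole, so a rise in some lowers others, and a lower share need not mean a lower level. This measure was chosen after the values were seen and has no test. The largest single share was that of mt-Co1, at 34.7% to 35.9% in young, 35.5% to 37.9% in aged IgG2a and 32.9% to 37.5% in aged aPD1ab mice, so that its ranges overlapped throughout.

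The mt-Nd5 share separated all 3 groups. It was 9.08%, 8.52%, 8.36%, 9.82% and 8.47% in young, 7.11%, 6.96%, 7.29% and 7.04% in aged IgG2a and 6.62%, 6.93%, 4.43% and 6.50% in aged aPD1ab mice. Aged IgG2a replicate 1, which stood apart in the size of the pool, lay among its group here. Means were 8.85% ± 0.609 (SD, n = 5), 7.10% ± 0.142 (SD, n = 4) and 6.12% ± 1.14 (SD, n = 4). The gap between the aged groups was narrow, from 6.93% to 6.96%, and without aPD1ab replicate 3 the difference of means went from -0.98 to -0.416 percentage points. As a percent of the 5 mRNAs outside the copied run, mt-Nd5 was at 15% to 17.5% in young, 12.8% to 13.6% in aged IgG2a and 7.95% to 12.9% in aged aPD1ab mice, so that the aged groups overlapped on that scale and neither overlapped with young mice.

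Shares of other complex I mRNAs shifted in different directions. The mt-Nd2 share was 11.4%, 10.8%, 11.2%, 10.9% and 9.76% in young mice and 8.56%, 8.74%, 9.38% and 9.64% in aged IgG2a mice, lower without overlap. With aPD1ab it was 7.74%, 7.71%, 9.98% and 7.19%, where replicate 3 reached the young range. The mt-Nd4 share was 7.85% to 8.44% in young, 8.28% to 8.62% in aged IgG2a and 9.18% to 10.3% in aged aPD1ab mice, so that the aPD1ab group lay above both others. Its nuclear copy covers the first 876 of 1378 bases. The part of the pair counted on mt-Nd4 was 98.15% to 98.47% in young and 98.19% to 98.44% in aged IgG2a libraries. In aged aPD1ab libraries it was 98.94% to 99.33%, again above both other groups. How reads from the shared bases were treated is not known, so this split does not free the mt-Nd4 share from the copy. The mt-Nd4l share, which is small and lies inside the run, was 0.0173% to 0.0731% in young, 0.0189% to 0.0439% in aged IgG2a and 0.00715% to 0.0171% in aged aPD1ab mice, with the aPD1ab group below both others. Shares of mt-Nd1 overlapped in all pairs of groups, with means of 12.8%, 12.7% and 12.8%.

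The mt-Cytb share was higher in both aged groups. It was 21.4%, 21.6%, 21.0%, 21.2% and 22.1% in young, 22.6%, 23.1%, 23.8% and 23.2% in aged IgG2a and 25.8%, 24.96%, 24.8% and 23.0% in aged aPD1ab mice. Young libraries did not overlap with either aged group, and the aged groups overlapped with each other. The 6 mRNAs inside the copied run together held 0.411% to 0.646% of the pool in young, 0.889% to 1.66% in aged IgG2a and 0.546% to 1.14% in aged aPD1ab mice. Cell type markers differed between the same groups, and their part in the make-up was not tested.

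**Figure D4:**
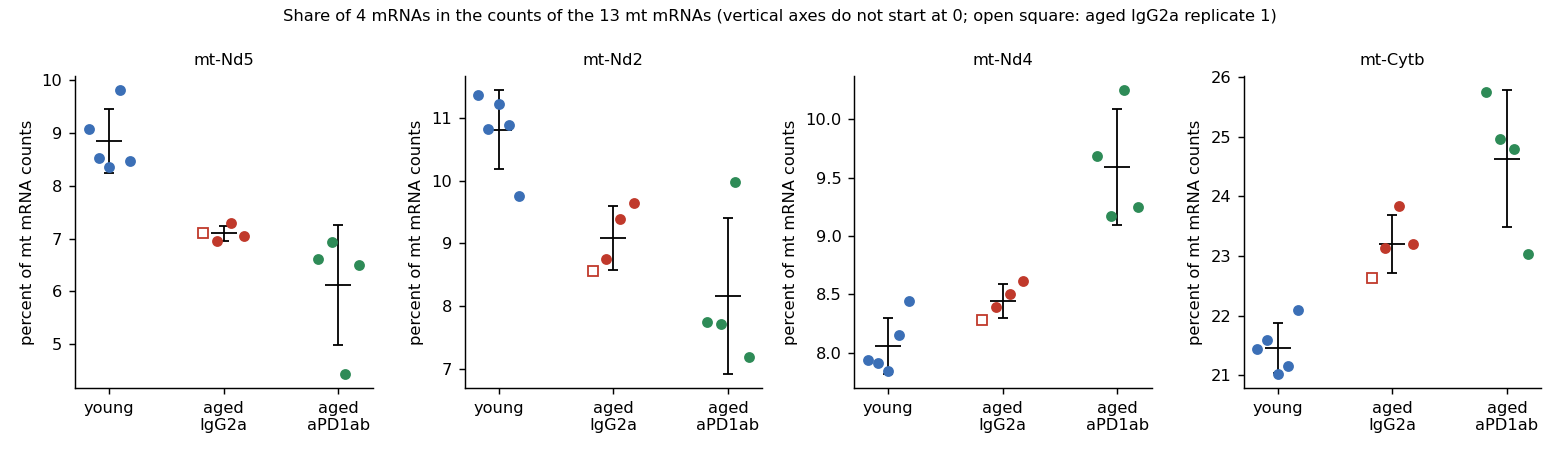
Percent of the counts on the 13 mRNAs that fell on mt-Nd5, mt-Nd2, mt-Nd4 and mt-Cytb, 1 point per library, with the mean ± SD of each group; the vertical axes do not start at 0. The mt-Nd5 share is 8.36% or more in young and 6.96% to 7.29% in aged IgG2a mice, and the mt-Nd4 share of aged aPD1ab mice (9.18% to 10.3%) lies above both other groups.

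Nuclear genes for subunits of the same complexes did not follow the mitochondrial mRNAs. Of 82 tested in aged IgG2a against young mice, 73 had a negative and 9 a positive log2 fold change, with a median of -0.19 beside 0.038 over all genes. Over all libraries 1 was called lower and 1 higher, against 8.38% and 9.05% of all genes. These were Ndufa4l2 (-1.16, edgeR adjusted p = 0.0299), a hypoxia-responsive relative of a complex IV subunit that its name places with complex I, and Cox7a2l (0.45, edgeR adjusted p = 0.0285), a factor that joins complexes III and IV. Without aged IgG2a replicate 1, 71 of 82 were called lower, against 23.5% of all genes, among them Ndufv1 (-0.71), an NADH-binding subunit, Sdhc (-0.67), a membrane anchor of complex II, and Uqcrc2 (-0.84), a core protein of complex III.

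Against aged IgG2a mice, all 82 nuclear subunits tested were higher with aPD1ab, and 0 were called by edgeR over all libraries, with 70 at an unadjusted p under 0.05, against 27.9% of all genes, and a median of 0.75. Without replicate 1, 77 were called higher, against 17.1% of all genes, with a median of 1.01. Medians over all libraries were 0.76 for complex I, 0.64 for complex II, 0.78 for complex III, 0.78 for complex IV and 0.73 for complex V. Complex II is the complex without a mitochondrially encoded subunit.

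Against young mice, 66 of 83 nuclear subunits were called higher with aPD1ab and 2 lower, against 12.4% and 9.97% of all genes, with a median of 0.51. The complex IV subunit Cox5a went from a mean of 37.4 to 67.4 CPM (log2 fold change 0.86, SE 0.10, edgeR adjusted p = 0.00264). Ndufs7, an iron-sulphur subunit of complex I, went from 60.7 to 106 CPM (0.82, SE 0.10, edgeR adjusted p = 0.00288). Uqcrq, a small subunit of complex III, went from 90.4 to 153 CPM (0.77, SE 0.10, edgeR adjusted p = 0.00316). The 2 called lower, Ndufa4l2 (-0.82) and Cox4i2 (-1.96), are low in these libraries, at group means of 0.21 to 3.16 CPM. In the same comparison 0 of 13 mitochondrial mRNAs were called.

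**Figure D5:**
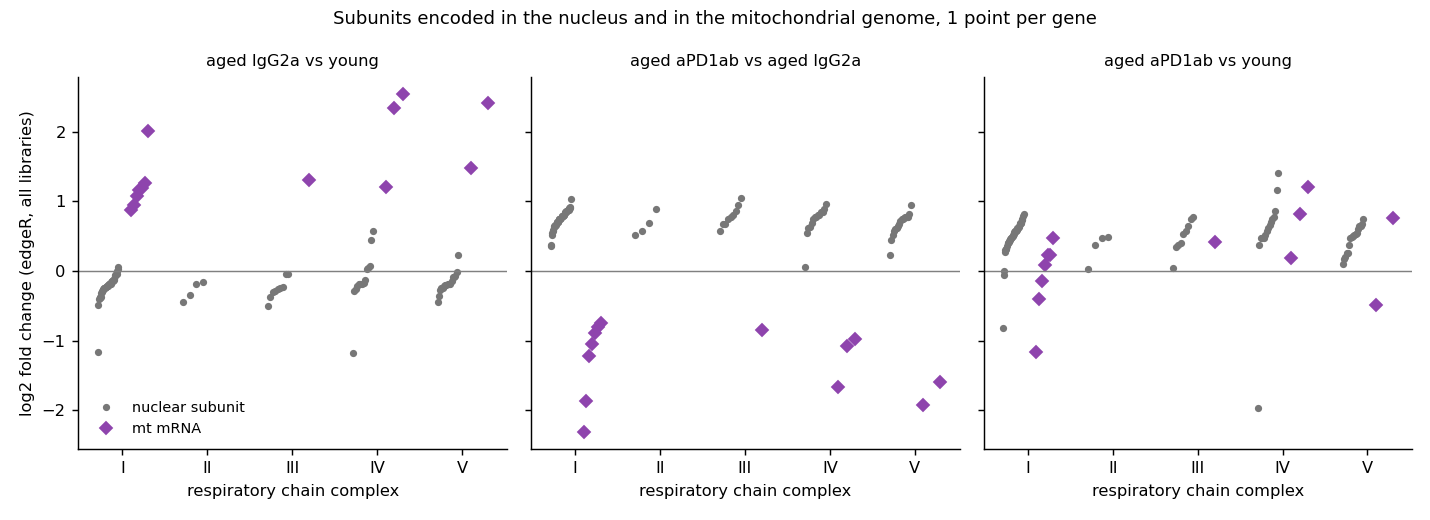
Log2 fold change over all libraries for nuclear subunits (grey points) and mitochondrial mRNAs (purple diamonds) of complexes I to V, 1 point per gene, in 3 comparisons. Nuclear subunits have a median of -0.19, 0.75 and 0.51 in the panels from left to right, and mitochondrial mRNAs 1.26, -1.08 and 0.23.

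Genes that copy and transcribe mitochondrial DNA showed few calls. Of 16, 1 was called lower in aged IgG2a than in young mice, Top1mt (-1.12, SE 0.30, edgeR adjusted p = 0.0351), the mitochondrial topoisomerase, against 8.38% of all genes. Without replicate 1 there were 6, against 23.5%, led by Top1mt (-1.62), Twnk (-0.59), the replicative helicase, and Tfb2m (-0.44), a transcription initiation factor. With aPD1ab against IgG2a 0 were called, with 5 at an unadjusted p under 0.05 (27.9% of all genes), and without replicate 1 there were 3 higher, against 17.1%, namely Top1mt (1.72), Tfb2m (0.55) and Twnk (0.60). Against young mice Ssbp1 (0.55, edgeR adjusted p = 0.00860), which binds single-stranded mitochondrial DNA, was called higher with aPD1ab, 1 of 16 against 12.4% of all genes. Medians were -0.15, 0.33 and 0.086 in the 3 comparisons.

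Of 24 tested genes for processing, stability and decay of mitochondrial RNA, 1 was called in aged IgG2a against young mice, Trit1 (0.45, edgeR adjusted p = 0.0358), a tRNA-modifying enzyme, against 9.05% of all genes called higher. Without replicate 1, 8 were called lower, against 23.5%, led by Lrpprc (-0.76, edgeR adjusted p = 1.3e-04), which protects mitochondrial mRNAs from decay. With aPD1ab against IgG2a 0 were called, with 7 at an unadjusted p under 0.05 (27.9% of all genes), and without replicate 1 there were 8 higher, against 17.1%, among them Hsd17b10 (0.85), Fastk (0.65) and Lrpprc (0.80), and 1 lower, Mtpap (-0.39), against 13.2%. Against young mice 5 were called higher with aPD1ab, against 12.4%, led by Slirp (0.84, SE 0.15, edgeR adjusted p = 0.00589), the partner of Lrpprc, and Rexo2 (0.49), an oligoribonuclease.

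Markers of mitochondrial mass and turnover were mixed in the first comparison, with 13 negative and 8 positive over all libraries. In the second comparison 16 were positive and 5 negative, and in the third 15 were positive and 6 negative. Of 21, 0 were called in aged IgG2a against young mice by edgeR over all libraries, with 3 at an unadjusted p under 0.05 (36.2% of all genes) and a median of -0.065; the most abundant, the outer membrane channel Vdac1, stood at -0.47 (edgeR adjusted p = 0.159). Without replicate 1 there were 9 called lower, against 23.5% of all genes, led by Vdac1 (-0.81), and 1 higher, Nrf1 (0.46), against 22.1%. With aPD1ab against IgG2a, 0 were called, with 11 at an unadjusted p under 0.05 (27.9% of all genes), and without replicate 1 there were 13 higher, against 17.1%, among them Esrra (0.80), a nuclear receptor that drives mitochondrial genes, and Vdac1 (1.18). Against young mice 6 were called higher and 1 lower with aPD1ab, against 12.4% and 9.97% of all genes, with Tomm40 (0.60), the outer membrane import pore, and Esrra (0.56) higher and Gabpa (-0.54), a transcription factor of nuclear subunit genes, lower. The 4 nuclear-retained RNAs (Malat1, Neat1, Kcnq1ot1, Meg3), whose summed level was 1018 to 1434 CPM in young, 985 to 1476 CPM in aged IgG2a and 1375 to 1684 CPM in aged aPD1ab mice, gave 0 edgeR calls in aged IgG2a against young mice, with 1 at an unadjusted p under 0.05, and 0 in aPD1ab against IgG2a, with 0 at that level. Of all genes, 36.2% and 27.9% reached that level in these comparisons. Without replicate 1 the counts of calls were 1 (Meg3, -0.72, edgeR adjusted p = 0.0497, against 23.5% of all genes called lower) and 0. Against young mice Neat1 (0.57) was called higher and Malat1 (-0.48) lower with aPD1ab, against 12.4% and 9.97% of all genes.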

How the data were processed

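The authors sequenced RNA of the podocyte fractions as TruSeq RNA libraries. Their deposited table gives raw read counts for each Ensembl gene identifier, all whole numbers. The submitters' processing notes name HISAT2, featureCounts and mm10 (GRCm38), with versions and the handling of strand and of reads with several matches not given in the sources used here. Columns carry numbers of their own: 13 were tied to groups through the numbers in the study's principal component plot, the mouse behind a column is not known, and 2 columns of per-sample values were not used. Symbols and positions came from GENCODE M21 for 45143 genes.

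Each pair of groups was fitted alone across the whole table (R 4.3.3, edgeR 4.0.16, quasi-likelihood test, TMM, genes kept by filterByExpr, Benjamini-Hochberg over all genes tested, called at an adjusted p under 0.05). CPM use TMM factors over 13 libraries. limma 3.58.1 and DESeq2 1.42.0 were alternatives. Named genes were all mt- genes with values, their nuclear copies, and from each nuclear list the called genes with the smallest p or the most abundant member. Ndufa4l2, Cox4i2, Nrf1 and Mtpap were named after their values were seen. Some cell type markers are not reported here and were left out of the summed levels. Members and lists were chosen with earlier results of these data known. Libraries of a group differed beyond counting noise (chi-square over degrees of freedom 12.7 or more in 22 pairs), which finds no library deposited more than once but does not show that each came from its own mouse. The p-values measure the spread between these libraries. Totals and floors (3 counts) cover counting error only. Fits were tested on simulated counts with the same dispersion for every gene and no library that stood apart. That test does not cover the spread between the libraries seen here.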

Additional observations from a re-analysis of the deposited data

Results flagged for a closer look

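In groups of 4 or 5 libraries, the highest or lowest value was marked where its gap to the next exceeded Dixon's critical share of the range. This held for 11 of 102 sets of values tested; chance marks about 1 in 20, and values of different genes in 1 library are not independent.

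Aged aPD1ab replicate 3 was high for mt-Nd1 (62535 CPM against 23712 to 29598), for mt-Co3 (1742 CPM against 359 to 511), for the mt-Nd3 share of the mRNA pool (0.0111% against 0.00785% to 0.00811%) and for the copies on chromosome 1 (0.867% of counts against 0.315% to 0.408%). Aged IgG2a replicate 4 was high for mt-Nd3, at 239 CPM against 25.5 to 57.5 and at 0.0312% of the pool against 0.00850% to 0.0100%. Young replicate 4 was high for the pool shares of mt-Nd3 (0.0159% against 0.00803% to 0.00907%) and mt-Nd4l (0.0731% against 0.0173% to 0.03003%).

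Aged IgG2a replicate 3 was high for the mt-Co2 share of the pool (0.719% against 0.260% to 0.305%). Aged IgG2a replicate 2 was low for mt-Rnr1 (2083 CPM against 3077 to 3226). Aged IgG2a replicate 1 was high for rRNA counts per 100 mRNA counts (2.42 against 1.10 to 1.22). Of the 11 marks, 8 concern genes inside the copied run or their copies. Those genes also supplied many of the values screened, as CPM, as pool shares and as sums, so the count does not single them out.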

How the results depend on the processing

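No paired analysis was possible because the columns carry no replicate numbers that the groups share. For aged IgG2a against young mice the 16 tested members were positive in each of 16 alternatives. The count of mRNAs called higher (10) was 4 with library totals in place of TMM, 4 without a low count filter and 4 to 13 when 1 library was left out. With DESeq2 and with limma voom, mt-Nd2 and mt-Nd5 were called as well, and with limma voom also mt-Nd4l. Shares of all genes called with library totals, without a filter, with DESeq2 or with limma voom are not given for this comparison. Those calls therefore have no background beside them. Library totals moved the log2 median of all genes to -0.38 and that of the 13 mRNAs to 0.76 here, to 0.24 and -0.82 for aPD1ab against IgG2a, and to -0.11 and 0.066 for aPD1ab against young mice. For aPD1ab against IgG2a the count called lower (0) was 7 with DESeq2, 13 with limma voom with quality weights, 4 in 1 edgeR fit of all 3 groups and 0 to 6 when 1 library was left out, the 6 without aged IgG2a replicate 1. mt-Rnr2 turned to 0.075 with library totals; the other 15 members stayed negative in 15 alternatives. For aPD1ab against young mice the count called higher (0) was 1 with DESeq2 and 0 to 1 when 1 library was left out, and the count called lower (0) was 2 with limma voom and 0 to 2 when 1 was left out. There 7 of 16 members turned in at least 1 alternative. With 1 library left out their log2 fold changes ran from -0.20 to 0.38 for mt-Nd1, -0.058 to 0.33 for mt-Co1, -0.02 to 1.05 for mt-Co3, -0.42 to 0.28 for mt-Nd3 and -0.0028 to 0.33 for mt-Nd6, each lowest without aPD1ab replicate 3, and from -0.62 to 0.058 for mt-Nd2 and -0.32 to 0.02 for mt-Tp, both highest without aPD1ab replicate 4. mt-Nd3 also turned without young replicate 2 (-0.00017), with library totals (-0.096) and with limma voom (-0.19), and mt-Tp without young replicate 3 (0.017). The cause was not tested.

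The mRNA share of counts (25.9% young, 41.7% aged IgG2a, 26.8% aged aPD1ab) was 14.5%, 22.5% and 14.5% over the 5 mRNAs outside the copied run, and 36.1%, 80.8% and 39.4% relative to nuclear protein coding counts. Differences in the pool shares of mt-Nd2, mt-Nd5 and mt-Cytb kept their direction in each alternative, which were added after seeing the data. Among the mRNAs, counting error is widest for mt-Atp8, the mRNA with the lowest level.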
